A study of Mus musculus with 8 samples.

Results

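The 9 genes described here are regulators of mitochondrial biogenesis, which are the coactivators Ppargc1a and Ppargc1b (PGC-1 alpha and beta), the estrogen-related receptors Esrra, Esrrb and Esrrg (ERR alpha, beta and gamma), the transcription factors Nrf1 and Gabpa, the mitochondrial transcription factor Tfam and the muscle regulator Perm1. They were found in the table by gene symbol, and the set was drawn up with earlier results of these data known. All 9 were among the 55401 genes of the table, and all 9 were among the 13677 genes that were tested, whose normalized counts averaged 10 or more. Expression was measured by RNA-seq of whole tibialis anterior (TA) muscles, a fast hindlimb muscle, with 4 samples from wild-type (WT) mice of the C57/Bl6 strain and 4 from mdx5cv mice on the same B6 background. The mice were males 6 mo old. The mdx5cv mouse is a model of Duchenne muscular dystrophy with a germline mutation in Dmd, the gene for dystrophin, so that every cell type of the muscle carries the mutation. The labels give no other allele or agent. They number the samples within a genotype and do not state that each came from a separate animal, so p-values measure the spread between these samples.

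PGC-1 coactivators do not bind DNA themselves. They dock on transcription factors, among them the ERRs, nuclear respiratory factor 1 (NRF1) and the ETS factor GABP (nuclear respiratory factor 2), and these switch on nuclear genes for the respiratory chain, fatty acid oxidation and mitochondrial DNA maintenance. TFAM, encoded by one such gene, packages mitochondrial DNA and starts its transcription. In skeletal muscle the program is high in oxidative fibers and rises with endurance training, and PERM1 is a muscle protein that PGC-1 and ERRs induce and that sustains expression of their targets.

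Of the 9 regulators, 5 were lower and 1 was higher in mdx5cv muscle at an adjusted p under 0.05 (limma with Benjamini-Hochberg adjustment), against 20.1% of all genes tested that were lower and 20.9% that were higher. The lower genes were Esrrb, Esrrg, Perm1, Tfam and Esrra, and the higher gene was Ppargc1b. With a change of 1 or more on the log2 scale required as well, 2 regulators (Esrrb and Esrrg) were lower and 0 were higher, against 3.27% and 10.3% of all genes. The same 5 genes were lower in each mdx5cv muscle than in any WT muscle, and Ppargc1b was higher in each, where 19.8% of all genes lay wholly below and 20.3% wholly above. The median log2 fold change was -0.52 over the 9 regulators and 0.00 over all genes tested. Ppargc1a, Nrf1 and Gabpa did not pass the test.

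The libraries held 13175524 to 14921057 reads assigned to genes, and the labels were checked against Dmd, whose normalized count was 6169 to 8155 in WT and 3461 to 4400 in mdx5cv (log2 fold change -0.81, SE 0.12, limma adjusted p = 1.77e-04). Whole muscle is a mixture of cells, and in bulk samples fewer cells of a type and less RNA per cell cannot be told apart. The macrophage list was higher for 8 of 8 genes, with a summed normalized count of 492 to 750 in WT and 3624 to 8709 in mdx5cv, and the fibroblast list for 7 of 8, with sums of 6024 to 8979 and 21376 to 40919. The regenerating fiber list was higher for 8 of 8, with sums of 254 to 353 and 3073 to 10785, and its fusion gene Mymx, picked after its value was seen, was at 0 in all 4 WT muscles. Of 8 mature fast fiber genes 4 were lower, and the sums overlapped, at 734721 to 931729 in WT and 544274 to 866948 in mdx5cv. Myh4 had the highest mean of the 8 and did not pass the test (log2 fold change -0.07, limma adjusted p = 0.879). Myh2, far less abundant, fell from a mean of 8952 to 3859 without overlap (-1.54, SE 0.50, limma adjusted p = 0.0241). Both genes were picked after their values were seen. The endothelial list was lower for 6 of 6 genes, with sums of 2562 to 3117 and 1579 to 2015, and the adipocyte list for 3 of the 4 tested, with sums of 66.5 to 479 and 19.5 to 62.3. Slow fiber genes were divided, with 4 higher and 2 lower of 8, and their sums were 776 to 888 in WT and 1237 to 2614 in mdx5cv. Apart from the fast fiber list, the sums of these lists did not overlap between the genotypes. They moved with the genotype as most of the regulators did, and the part of these lists in the results was not tested.

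The share of reads from mitochondrial genes was 30 to 38.7% in WT and 25.3 to 32.1% in mdx5cv, and these ranges overlapped. The scaling of the libraries bears on the fold changes, also when mitochondrial genes are left out of the totals. The authors' size factors put the median of all genes at 0.00. Equal totals moved that median by 0.36, equal totals without mitochondrial genes by 0.21, and scaling to the mature fast fiber genes, an alternative chosen after seeing the data, by 0.37, and every regulator moved upward by a similar amount. Esrrb, Esrrg and Perm1 stayed lower and Ppargc1b stayed higher under each of these scalings.

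**Figure D1:**
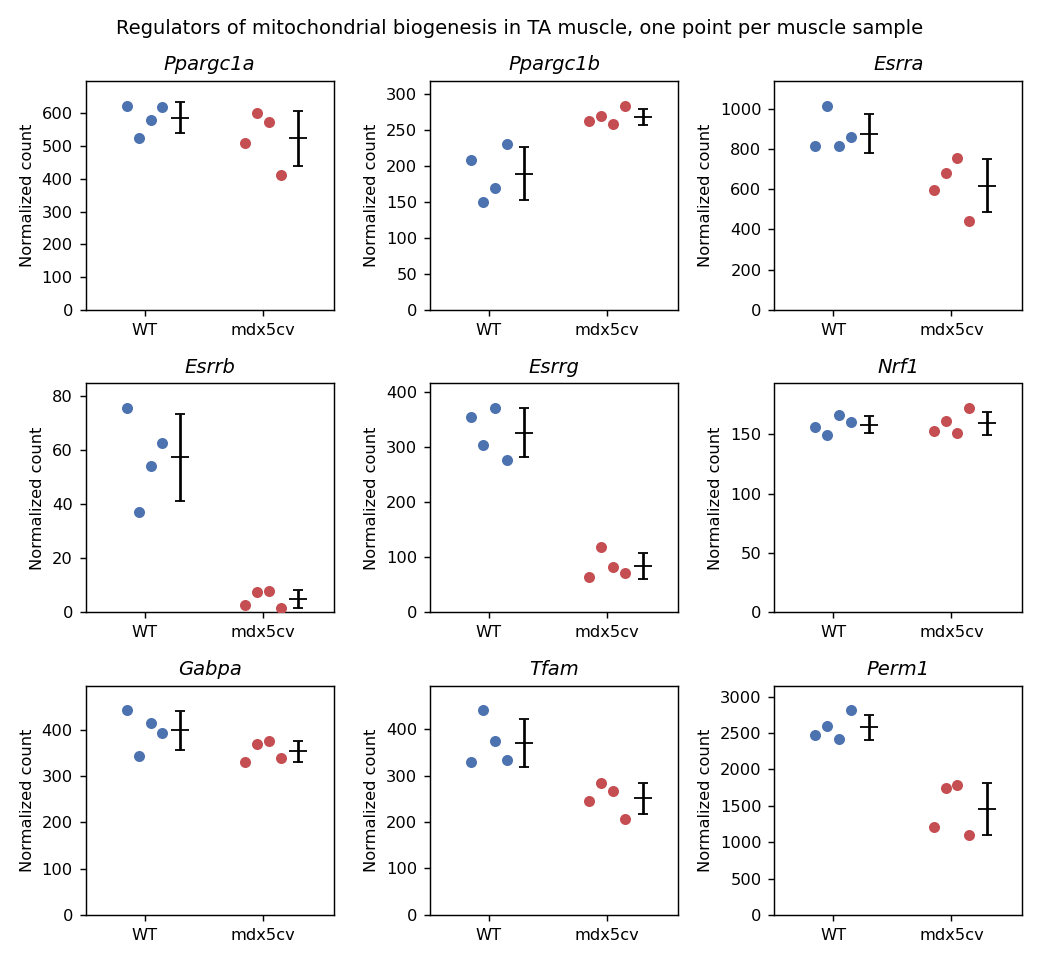
Normalized count (vertical axes, from 0) of each of the 9 regulators in the 4 WT (blue) and 4 mdx5cv (red) muscles, ordered by replicate number within a group, with the mean and SD in black. The groups do not overlap for Ppargc1b, Esrra, Esrrb, Esrrg, Tfam and Perm1, and they overlap for Ppargc1a, Nrf1 and Gabpa.

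Among the regulators, Perm1, Tfam and Esrra were lower in mdx5cv muscle and Gabpa did not pass the test. The promoters of these 4 genes are shown because each holds a sequence that an ERR, NRF1 or GABP can recognise. They are RefSeq sequences of GRCm38.p6, from 250 bases before to 50 bases after the start that RefSeq annotates, and are written 5' to 3' on the strand of the gene with the match in capitals. Windows were at hand for 8 of the 9 genes, 13 windows in all, and none for Ppargc1b.

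Perm1, chr4:156215677-156215976, plus strand: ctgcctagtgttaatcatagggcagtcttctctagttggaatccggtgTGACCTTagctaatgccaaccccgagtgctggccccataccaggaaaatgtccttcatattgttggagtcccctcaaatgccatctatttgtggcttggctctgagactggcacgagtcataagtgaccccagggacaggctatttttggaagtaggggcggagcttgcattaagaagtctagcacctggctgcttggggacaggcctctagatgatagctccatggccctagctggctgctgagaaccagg

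Tfam, chr10:71237995-71238294, minus strand: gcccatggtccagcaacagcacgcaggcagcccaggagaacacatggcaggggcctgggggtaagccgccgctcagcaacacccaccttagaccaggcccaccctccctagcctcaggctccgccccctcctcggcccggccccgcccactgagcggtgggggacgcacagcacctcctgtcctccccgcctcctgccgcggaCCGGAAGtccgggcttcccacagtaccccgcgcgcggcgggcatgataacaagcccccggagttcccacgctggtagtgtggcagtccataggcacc

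Gabpa, chr16:84834874-84835173, plus strand: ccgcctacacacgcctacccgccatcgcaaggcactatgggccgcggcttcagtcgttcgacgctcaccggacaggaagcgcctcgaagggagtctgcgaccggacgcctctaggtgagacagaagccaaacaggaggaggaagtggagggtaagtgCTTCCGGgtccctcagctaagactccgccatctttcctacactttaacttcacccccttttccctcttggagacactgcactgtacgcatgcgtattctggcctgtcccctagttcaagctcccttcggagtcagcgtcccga

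Esrra, chr19:6921759-6922058, minus strand: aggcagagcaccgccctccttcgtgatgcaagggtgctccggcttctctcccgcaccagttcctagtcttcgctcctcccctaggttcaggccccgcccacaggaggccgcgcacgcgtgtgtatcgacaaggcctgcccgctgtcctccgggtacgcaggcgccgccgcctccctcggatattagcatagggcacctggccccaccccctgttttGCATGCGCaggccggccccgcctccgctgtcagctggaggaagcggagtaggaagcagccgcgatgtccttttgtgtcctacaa

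In these 4 windows the capitals mark a different motif for each kind of factor, searched on both strands. The ERR core AAGGTCA occurred in the Perm1 window on the opposite strand, 202 bases before the start, and in 4.72% of 32851 RefSeq promoter windows of the same length. The NRF1 core GCATGCGC occurred in the Esrra window, 34 bases before the start, and in 2.71% of all windows. The GABP site CCGGAAG is a site of ETS factors and is not particular to GABP. It occurred in the Tfam window, 47 bases before the start, and in the Gabpa window on the opposite strand, 93 bases before the start. Of all windows, 8.86% held it. The longer ERR site TCAAGGTCA, which contains AAGGTCA, and the cyclic AMP response element TGACGTCA occurred in none of the 13 windows, and in 0.423% and 1.79% of all windows. Of the 13 windows, the ERR core was in 1, the NRF1 core in 1 and the GABP site in 2. Esrrb and Esrrg, whose changes were the largest, have 2 and 4 windows, and none of these held a match. A link between motifs and the changes was not tested. The distances given are from the RefSeq start. The gene starts of GENCODE, used for the gene coordinates given with each gene, lie upstream of it by 236 bases for Tfam, 199 for Gabpa, 59 for Perm1 and 5 for Esrra. Counted from the GENCODE start, the Tfam and Gabpa matches lie 189 and 106 bases inside the gene, and the Perm1 and Esrra matches 143 and 29 bases before it. A match of letters does not show that a factor binds there.

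The coactivators differed from each other in their change. Ppargc1a encodes PGC-1 alpha, the exercise-induced coactivator, and lies on the minus strand of chromosome 5 (51454250 to 51567726, GRCm38). Its normalized count was 623, 523, 580 and 619 in WT muscles 1 to 4 and 510, 601, 572 and 412 in mdx5cv muscles 1 to 4. The groups overlapped, and mdx5cv muscle 4 was the lowest of the 8. WT averaged 586 ± 46.3 and mdx5cv 524 ± 83.4 (SD, n = 4). The log2 fold change of -0.17 had a 95% confidence interval of -0.44 to 0.10 (limma adjusted p = 0.291), and its sign depended on the scaling, with 0.18 under equal totals, 0.04 without mitochondrial genes and 0.19 when scaled to fast fiber genes.

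Ppargc1b encodes PGC-1 beta, the paralog with high constitutive expression in oxidative tissues, and lies on the minus strand of chromosome 18 (61298136 to 61400431). The WT muscles had normalized counts of 209, 150, 169 and 230, and the mdx5cv muscles 262, 269, 259 and 284. Each mdx5cv muscle was above the highest WT muscle, and the mdx5cv muscles lay closer together than the WT muscles. The mean rose from 189 ± 36.3 to 269 ± 10.9 (SD, n = 4), or by 0.52 on the log2 scale (SE 0.14, limma adjusted p = 0.00877), and it stayed higher under all 21 alternatives, with log2 fold changes of 0.42 to 0.89. The log2 ratio of Ppargc1a to Ppargc1b within a muscle, in which the scaling cancels apart from the pseudocount, was 1.42 to 1.79 in WT and 0.54 to 1.16 in mdx5cv. The ratio was lower in each mdx5cv muscle, with a difference of means of -0.69 (exact two-sided permutation test, p = 0.0286, the smallest that 4 against 4 allows, adjusted p = 0.0357 over 5 pairs). Per kb of exon, PGC-1 alpha transcripts made up 65.4% ± 2.77 (SD, n = 4) of the summed level of the pair in WT against 53.9% ± 4.97 in mdx5cv, and the sum itself was 136 ± 15.8 and 147 ± 10.8 normalized counts per kb.

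The ERRs are orphan nuclear receptors that bind DNA without a known natural hormone, and all 3 were lower in mdx5cv muscle, to different degrees. Esrrg, whose product ERR gamma is enriched in oxidative muscle and heart, lies on the plus strand of chromosome 1 (187608791 to 188214885). Its normalized count was 354, 304, 371 and 276 in WT and 63.9, 118, 82.8 and 71.9 in mdx5cv. The highest mdx5cv muscle was far below the lowest WT muscle. The mean fell from 326 ± 44 to 84.2 ± 23.8 (SD, n = 4), which was 25.8% of the WT mean, with a log2 fold change of -1.97 (SE 0.18, limma adjusted p = 5.17e-06), and under all 21 alternatives it was -2.15 to -1.61.

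Esrrb encodes ERR beta, best known from pluripotent stem cells and the inner ear, and lies on the plus strand of chromosome 12 (86361117 to 86521628). It was the least abundant of the 9 genes, with 66, 34, 49 and 59 reads in WT muscles and 3, 8, 9 and 2 in mdx5cv muscles. As normalized counts these were 75.6, 37.3, 54.2 and 62.5 in WT and 2.78, 7.55, 8.1 and 1.6 in mdx5cv. Every mdx5cv muscle was below every WT muscle, and the mdx5cv mean of 5.01 ± 3.3 was 8.72% of the WT mean of 57.4 ± 16.1 (SD, n = 4). The log2 fold change was -3.43 (SE 0.41, limma adjusted p = 3.60e-05). With so few reads in mdx5cv muscle its size depended on the pseudocount, and over 20 alternatives it was -3.73 to -2.16 and always past the threshold.

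Esrra encodes ERR alpha, the receptor through which PGC-1 alpha drives much of its oxidative program, and lies on the minus strand of chromosome 19 (6910977 to 6921813). In WT muscles it reached normalized counts of 813, 1015, 814 and 860, and in mdx5cv muscles 594, 681, 753 and 443. The groups did not overlap, but WT muscles 1 and 3 were close to mdx5cv muscle 3, and mdx5cv muscle 4 was again the lowest. WT averaged 875 ± 95.5 and mdx5cv 618 ± 134 (SD, n = 4), with a log2 fold change of -0.52 (SE 0.15, limma adjusted p = 0.0135). This call did not hold under other scalings, where the log2 fold change was -0.17 with equal totals (limma adjusted p = 0.314), -0.31 without mitochondrial genes (0.0643) and -0.16 when scaled to fast fiber genes (0.444).

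The ratios between ERR transcripts differed between the genotypes. The log2 ratio of Esrra to Esrrg was 1.13 to 1.74 in WT and 2.52 to 3.20 in mdx5cv, a difference of 1.45. For Esrra to Esrrb it was 3.41 to 4.73 and 6.32 to 7.42, a difference of 2.91. For Esrrb to Esrrg it was -2.99 to -2.13 and -4.81 to -3.20, a difference of -1.46, which a pseudocount of 10 reduced to -0.30 (adjusted p = 0.229, exact permutation test over 5 pairs). For each of these 3 ratios the groups did not overlap (exact two-sided permutation test, p = 0.0286, the smallest that 4 against 4 allows, adjusted p = 0.0357). The 3 ratios are not independent results, since any 2 of them fix the other. Per kb of exon, the summed ERR level averaged 262 ± 16.6 (SD, n = 4) in WT against 155 ± 33 in mdx5cv. Esrra made up 76.1% ± 3.97 of it in WT and 90.7% ± 2.02 in mdx5cv, Esrrg 20.2% ± 3.25 and 8.83% ± 2, and Esrrb 3.68% ± 1.16 and 0.495% ± 0.257.

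**Figure D2:**
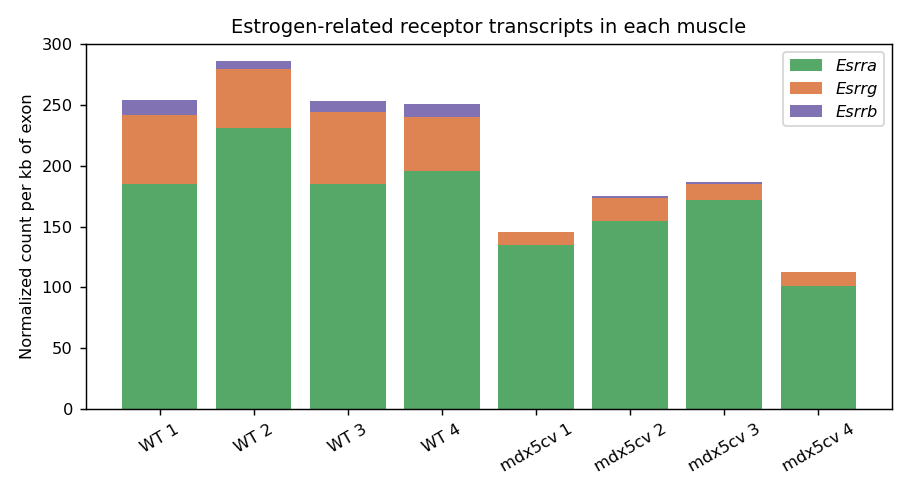
Normalized count per kb of exon (vertical axis) of Esrra, Esrrg and Esrrb, stacked for each of the 8 muscles. The sum is 251 to 286 in WT and 113 to 186 in mdx5cv, and the Esrrg and Esrrb parts are smaller in every mdx5cv muscle than in any WT muscle.

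Nrf1 encodes nuclear respiratory factor 1, an activator of respiratory chain genes, and lies on the plus strand of chromosome 6 (30047988 to 30153458). Normalized counts were 156, 149, 166 and 160 in WT and 153, 161, 151 and 172 in mdx5cv. The groups overlapped, and relative to their mean the 8 values lay closer together than those of the other genes. WT averaged 158 ± 7.01 and mdx5cv 159 ± 9.42 (SD, n = 4), with a log2 fold change of 0.01 (95% confidence interval -0.23 to 0.26, limma adjusted p = 0.934). Over the 21 alternatives it was -0.02 to 0.38. None of them passed the threshold, with a lowest adjusted p of 0.0558 (limma, edgeR or DESeq2).

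Gabpa encodes the DNA-binding subunit of GABP and lies on the plus strand of chromosome 16 (84834925 to 84863779). Its normalized count was 441, 343, 415 and 393 in WT and 329, 368, 376 and 339 in mdx5cv. The groups overlapped through WT muscle 2, and WT averaged 398 ± 41.5 and mdx5cv 353 ± 22.4 (SD, n = 4). The log2 fold change of -0.17 had a 95% confidence interval of -0.41 to 0.07 (limma adjusted p = 0.235), and it became 0.19, 0.04 and 0.20 under equal totals, without mitochondrial genes and when scaled to fast fiber genes. The log2 ratio of Nrf1 to Gabpa was -1.50 to -1.20 in WT and -1.31 to -0.98 in mdx5cv, a difference of 0.18 that did not pass the test (exact two-sided permutation test, p = 0.114, adjusted p = 0.114).

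**Figure D3:**
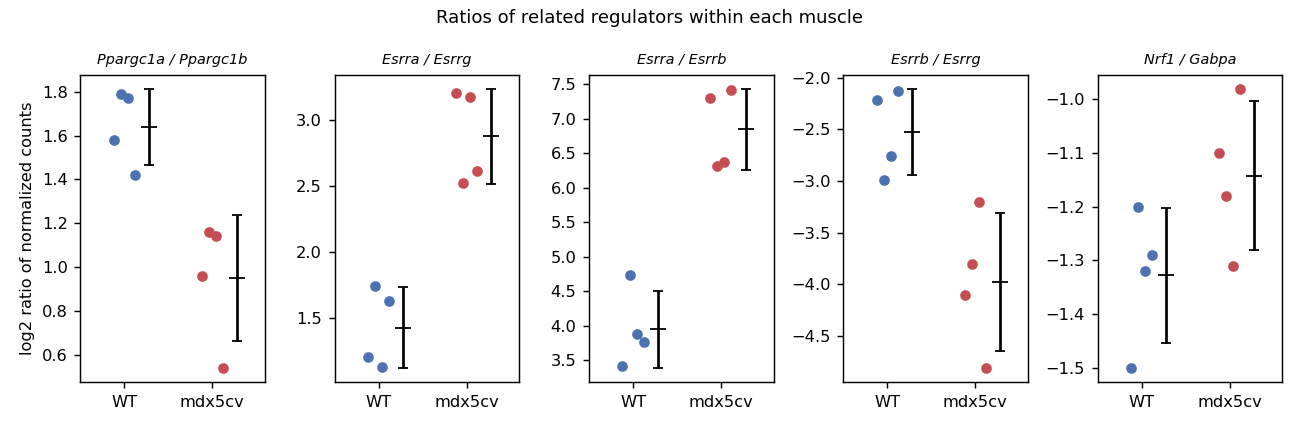
Log2 ratio of the normalized counts (pseudocount of 1) of 5 pairs of related regulators in each WT (blue) and mdx5cv (red) muscle, with the mean and SD in black and a separate vertical axis for each pair that does not start at 0. The genotypes do not overlap for Ppargc1a to Ppargc1b and for the 3 ERR pairs, and they overlap for Nrf1 to Gabpa.

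Tfam, on the minus strand of chromosome 10 (71225464 to 71238280), encodes the factor that coats mitochondrial DNA and is limiting for its copy number. Its normalized count was 329, 440, 375 and 333 in WT and 246, 284, 267 and 207 in mdx5cv. Each mdx5cv muscle was below the lowest WT muscle. The mean fell from 369 ± 51.6 to 251 ± 33.1 (SD, n = 4), with a fitted log2 difference of -0.56 (SE 0.13, limma adjusted p = 0.00478). The call was lost with equal totals (-0.20, limma adjusted p = 0.22) and when scaled to fast fiber genes (-0.19, limma adjusted p = 0.409).

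Perm1, on the plus strand of chromosome 4 (156215868 to 156221307), was the most abundant of the 9 regulators. Normalized counts were 2475, 2599, 2419 and 2809 in WT and 1213, 1740, 1787 and 1096 in mdx5cv. The WT muscles lay close together, and the mdx5cv muscles fell into a higher pair, 2 and 3, and a lower pair, 1 and 4, all below WT. The mean fell from 2576 ± 173 to 1459 ± 355 (SD, n = 4), which was 56.6% of the WT mean, with a log2 fold change of -0.85 (SE 0.15, limma adjusted p = 6.84e-04). It passed the threshold under all 21 alternatives, with log2 fold changes of -0.96 to -0.48.

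**Figure D4:**
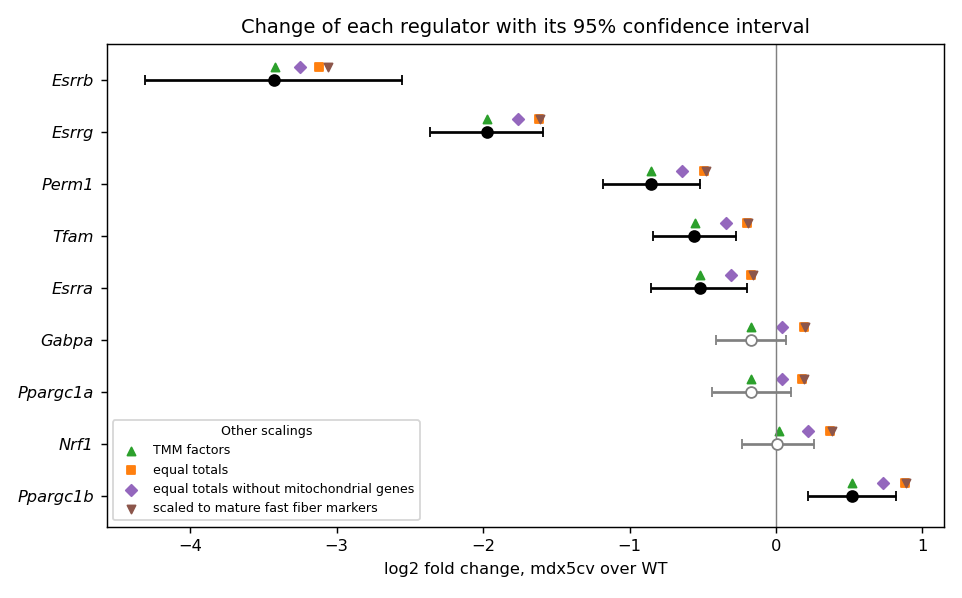
Log2 fold change of each regulator, mdx5cv over WT, with its 95% confidence interval (circles, filled where the limma adjusted p was under 0.05) and the value under 4 other scalings (coloured symbols above each line). Esrrb, Esrrg and Perm1 lie below 0 and Ppargc1b above 0 under each scaling shown, while Ppargc1a and Gabpa change sign.

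Per kb of exon, the order of the levels changed for the genes in the middle of the range. In WT, Perm1 led with 660 ± 44.3 normalized counts per kb, followed by Esrra with 200 ± 21.8 (SD, n = 4). Ppargc1a (89 ± 7.03), Tfam (83.2 ± 11.6) and Gabpa (70 ± 7.29) followed, and each overlapped its neighbour in this order. Esrrg (52.6 ± 7.08) and Ppargc1b (47.5 ± 9.09) overlapped each other, and Nrf1 (15.3 ± 0.682) and Esrrb (9.49 ± 2.66) came last with no overlap.

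In mdx5cv, Perm1 (374 ± 91 normalized counts per kb) and Esrra (141 ± 30.4) still led, without overlap (SD, n = 4). Ppargc1a (79.5 ± 12.6), Ppargc1b (67.3 ± 2.72), Gabpa (62 ± 3.95) and Tfam (56.5 ± 7.47) formed a run in which each overlapped its neighbour. Nrf1 (15.5 ± 0.916) and Esrrg (13.6 ± 3.84) overlapped, so that on this scale ERR gamma transcripts had dropped from the range of Ppargc1b to that of Nrf1. Ranks between genes depend on the merged exon lengths. As normalized counts, WT Esrrg at 276 to 371 was above Ppargc1b at 150 to 230. In mdx5cv, Esrrg at 63.9 to 118 was below Nrf1 at 151 to 172. Esrrb was last at 0.828 ± 0.545. Muscles 2 in WT and 4 in mdx5cv were each the lowest of their group for 5 of the 9 genes. mdx5cv muscle 4 also had the highest summed level of the macrophage, fibroblast and regenerating fiber lists and the lowest of the fast fiber list, and leaving it out changed none of the 9 calls.

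The wider pathway was described with 8 gene lists that hold 290 genes in the table, of which 284 were tested. Of these, 195 were lower and 6 were higher in mdx5cv muscle, against 20.1% and 20.9% of all genes tested. The counts of the single lists below are to be set against the same shares. Equal totals gave 73 lower and 19 higher, equal totals without mitochondrial genes 129 and 10, and scaling to fast fiber genes 45 and 15. Over all 13677 genes tested, the same 3 scalings turned 2743 lower and 2854 higher genes into 820 and 5444, 1398 and 4138, and 567 and 4495. These are the counts to set beside those of single lists under the same scalings.

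Among 26 genes that PGC-1 and the ERRs are known to activate, 18 were lower and 0 were higher, and the list's median was -0.86 (log2). Fabp3, the fatty acid carrier of heart and oxidative muscle, fell from 2137 ± 581 to 566 ± 154 normalized counts (SD, n = 4, log2 fold change -1.92, SE 0.21, limma adjusted p = 1.84e-05). Acadm, which starts the oxidation of medium-chain fatty acids, fell from 2670 ± 279 to 1167 ± 266 (log2 fold change -1.22, SE 0.15, limma adjusted p = 4.45e-05). Other members differed widely. Among genes picked after their values were seen, citrate synthase Cs (-0.31, limma adjusted p = 0.0932), Mdh2 of the citric acid cycle (-0.10, 0.493) and the fusion gene Mfn2 (0.02, 0.949) did not pass the test, while Acadl, Acadvl, Hadha and Hadhb of fatty acid oxidation were lower, with log2 fold changes of -0.86, -1.20, -0.68 and -1.06. With equal totals 15 of the 26 genes were lower and 0 higher, and when scaled to fast fiber genes 13 were lower and 1 higher. Equal totals without mitochondrial genes gave 17 lower and 0 higher.

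Upstream inputs and cofactors, such as the energy sensor AMPK, calcineurin and the PPARs, had 6 lower, 5 higher and 21 not called of 32, with a median of 0.06, and these shares do not exceed the 20.1% and 20.9% of all genes tested. Lpin1, a lipin that coactivates with PGC-1 alpha, fell from 4496 ± 696 to 2548 ± 249 (SD, n = 4, log2 fold change -0.81, SE 0.12, limma adjusted p = 2.22e-04), and Prkab2, a regulatory AMPK subunit of muscle, from 5121 ± 360 to 3088 ± 663 (-0.76, SE 0.15, limma adjusted p = 0.00158). Camkk2, a kinase that activates AMPK, rose from 63.9 ± 15.2 to 144 ± 20.5 (1.18, SE 0.18, limma adjusted p = 2.60e-04), and the AMPK subunit Prkag2 from 71.6 ± 20 to 140 ± 9.43 (0.99, SE 0.18, limma adjusted p = 7.36e-04). The count of higher genes depended on single muscles, at 2 without WT muscle 3 or without mdx5cv muscle 4 and 3 without mdx5cv muscle 1. It was 15 with equal totals and 12 when scaled to fast fiber genes, with 2 lower under each. Equal totals without mitochondrial genes gave 9 higher and 3 lower.

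Of 16 tested genes for transcription and replication of mitochondrial DNA, 6 were lower and 0 were higher, with a median of -0.19. The median became 0.16 with equal totals and 0.18 when scaled to fast fiber genes, where 1 and 0 genes were lower and 1 was higher under each. Equal totals without mitochondrial genes gave a median of 0.02, with 3 lower and 0 higher. Tefm, the elongation factor of mitochondrial transcription, fell from 145 ± 34 to 79.8 ± 13.1 normalized counts (SD, n = 4, log2 fold change -0.83, SE 0.18, limma adjusted p = 0.00286), and Lonp1, a matrix protease that degrades TFAM, fell from 891 ± 39.2 to 624 ± 114 (-0.53, SE 0.13, limma adjusted p = 0.005). The mitochondrial RNA polymerase Polrmt (-0.26, limma adjusted p = 0.161) and the DNA polymerase Polg (-0.04, 0.792), both picked after their values were seen, did not pass.

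Transcripts of the mitochondrial genome itself, the template on which TFAM acts, were lower for 11 of 12 mRNAs tested, with a median of -1.28. With equal totals 8 were lower and the median was -0.92, and when scaled to fast fiber genes 7 were lower. Equal totals without mitochondrial genes gave 8 lower and a median of -1.07. The rule for named genes picked mt-Nd3 (234 ± 56.4 to 47.4 ± 20.1, log2 fold change -2.34, SE 0.27, limma adjusted p = 2.38e-05) and mt-Co3 (245 ± 65.9 to 63.1 ± 18.1, -1.94, SE 0.23, limma adjusted p = 3.36e-05). Their counts were far below those of mt-Co1 (398334 ± 86787 to 168199 ± 37043, -1.24, SE 0.29, limma adjusted p = 0.004), which was picked after its value was seen. Nuclear copies of mitochondrial DNA share sequence with some of these genes. How reads that match more than 1 place were counted is not given in the sources used here. The levels of mt-Nd3 and mt-Co3 are therefore uncertain. So are those of mt-Co2, mt-Atp6 and mt-Atp8 (WT means 123, 139 and 22.5), which like the genes below were picked after their values were seen. The low-count genes, at -2.34 to -1.47 (log2), enter the count and median above. Among genes with high counts, mt-Nd1, mt-Nd2, mt-Nd4, mt-Nd5, mt-Co1 and mt-Cytb were at -1.32 to -0.75. The groups overlapped for mt-Nd2, mt-Nd4, mt-Nd5 and mt-Cytb.

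The lists of nuclear genes for mitochondrial proteins depended on the scaling in how many genes were called. Of 81 oxidative phosphorylation subunits 71 were lower and 1 was higher, with a median of -0.64, among them the complex I subunits Ndufa12 (-1.01, SE 0.16, limma adjusted p = 3.14e-04) and Ndufa3 (-0.79, SE 0.13, 3.22e-04). The higher gene was Cox6a1 (0.53, SE 0.14, limma adjusted p = 0.00927), the form of a cytochrome oxidase subunit found in most tissues. Of 77 mitochondrial ribosomal proteins 55 were lower and 0 higher (median -0.50), with Mrpl55 at -1.01 (SE 0.15, limma adjusted p = 1.51e-04) and Mrps7 at -0.71 (SE 0.11, 2.53e-04). With equal totals the counts of lower genes were 32 and 9 in these lists, and when scaled to fast fiber genes 16 and 3. Equal totals without mitochondrial genes gave 60 and 23.

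Of 24 import and chaperone genes 19 were lower and 0 higher, with a median of -0.52. Under equal totals 5 were lower, without mitochondrial genes 9, and when scaled to fast fiber genes 4. Among the 19 were the inner membrane channel Timm23 (-1.06, SE 0.12, limma adjusted p = 2.62e-05) and the chaperonin Hspe1 (-0.86, SE 0.12, 1.07e-04). Of 16 genes for fusion, fission and mitophagy 9 were lower and 0 higher, with a median of -0.35. The median became 0.01 with equal totals and 0.02 when scaled to fast fiber genes, where 1 and 0 genes were lower. Without mitochondrial genes it was -0.14, with 6 lower. The 9 lower genes included Fundc2 (-0.62, SE 0.13, limma adjusted p = 0.00182) and the fusion gene Opa1 (-0.51, SE 0.11, 0.00224). Of the genes named from the lists, Lonp1 (-0.17), Fundc2 (-0.27) and Opa1 (-0.16) lost their call with equal totals, and these 3, Tefm (-0.47) and Mrps7 (-0.34) lost it when scaled to fast fiber genes.

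**Figure D5:**
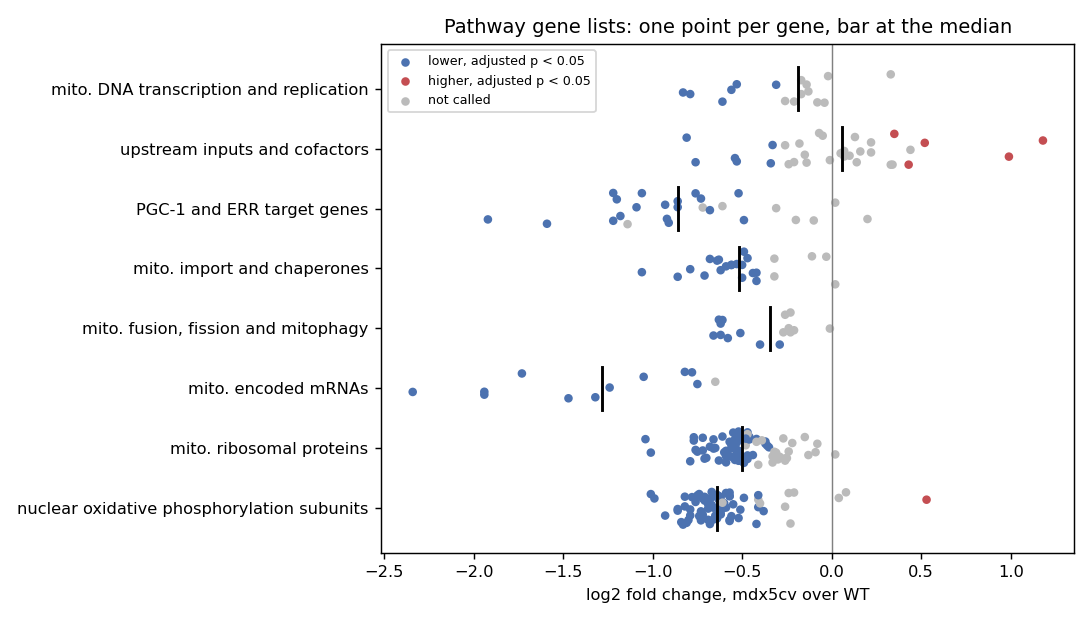
Log2 fold change, mdx5cv over WT, of each tested gene in 8 pathway lists (points, spread vertically at random), with a black bar at the median of each list and colours for the limma call. The upstream inputs lie on both sides of 0, and the other lists lie mostly below 0 under the authors' scaling, with medians of -0.19 to -1.28, but equal totals put the median of the mitochondrial DNA list at 0.16 and that of the fusion, fission and mitophagy list at 0.01.

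For the 3 regulators with the largest change, the genes of most similar pattern were found by the root mean square difference of log2 deviations from the WT mean over the 8 muscles, among genes whose normalized counts averaged 100 or more. The measure includes the shift between the genotypes, so it favours genes of similar log2 fold change by construction. Likeness within a genotype was not measured separately. Nearest to Esrrb, out of 7641 candidates, were Cyp4f39 (0.55), Rhou (0.56) and Dusp26 (0.58), with log2 fold changes of -2.93, -3.08 and -4.06. Nearest to Esrrg, out of 7640, were Ephx2 (0.22), the mitochondrial transfer RNA mt-Ti (0.22) and Cd24a (0.23), with log2 fold changes of -1.95, -1.95 and -1.88. Nearest to Perm1 were Cox6a2 (0.11), the muscle form of the subunit whose other form is Cox6a1, the carnitine acetyltransferase Crat (0.11) and the matrix protease subunit Clpp (0.12), with log2 fold changes of -0.79, -0.80 and -0.84. The differences were smaller for Perm1 than for Esrrb, and the reason was not tested.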

How the data were processed

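RNA-seq of 4 WT and 4 mdx5cv TA muscle samples was analysed, with groups taken from the genotype labels. The libraries were reverse-stranded total RNA libraries per the labels. The submitters' processing notes name FastQC, Trim Galore 0.6.4, STAR 2.6.0c, SAMtools 1.9, featureCounts, MultiQC 1.6, DESeq2 1.26.0, R 3.6.2 and mm10, and the annotation and the strand setting of the counting are not given in the sources used here, so overlapping antisense genes are uncertain. The signal the authors deposited for each gene was its read count after division by the sample's size factor (0.873 to 0.944 in WT, 1.06 to 1.25 in mdx5cv). Whole reads were recovered from 100% of the values within 0.001. Chi-square per degree of freedom between replicates was 9.27 to 42.2, so none was counted as a copy.

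The genotypes were tested against each other using limma 3.58.1 under R 4.3.3 (lmFit and eBayes with a variance trend, no covariate, two-sided) on log2(normalized count + 1), which understates the change of low genes, over genes with a mean of at least 10, with Benjamini-Hochberg adjustment. On the recovered reads edgeR 4.0.16 (quasi-likelihood) called 2731 genes lower and 2849 higher, and DESeq2 1.42.0 called 2734 and 3147 of 28501 genes with a read. Ratios of 5 pairs were compared with exact permutation tests. Other alternatives were the pseudocount, the filter, TMM, equal totals, median centring, no trend, the replicate block and each replicate left out. Scripts were tested on simulated data. Gene IDs were matched to GENCODE M21 (GRCm38) with versions ignored (55141 IDs, all 9 regulators), whose merged exons gave the lengths. Tables and plots were made in Python 3.11.15 (pandas 2.3.3, numpy 2.4.6, matplotlib 3.10.9, scipy 1.17.1).

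The members, lists and tests were chosen with earlier results of these data known. Named genes were the 9 regulators, the 2 lowest adjusted p in each direction of each pathway list, the 3 genes nearest in pattern to each of the 3 regulators of largest change, and Dmd, and other names are said to be picked after their values were seen. Oxidative phosphorylation and ribosomal lists were taken by symbol, and no protein sequences were used here.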

Additional observations from a re-analysis of the deposited data

Results flagged for a closer look

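Within groups of 4 muscles, the gap of the highest or lowest muscle was compared with Dixon's 95% critical value for 58 sets, namely the 9 regulators, the 5 ratios and the 15 gene lists in each of 2 groups. No regulator was marked. Marked were 2 sets, and chance would mark about 2.9. The median log2 deviation of the fibroblast list from the WT mean was 0.21 in WT muscle 2 and -0.11 to -0.08 in the other 3 WT muscles. That of the endothelial list was -0.24 in WT muscle 3 and 0.05 to 0.10 in the other 3. The cause was not tested.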

How the results depend on the processing

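Calls for Ppargc1b, Esrrg and Perm1 held under all 21 alternatives, and that for Esrrb under the 20 that could test it, since a minimum of 10 in every muscle left it out. The 5 lower regulators became 3 with equal totals and 3 when scaled to fast fiber genes, by loss of Esrra and Tfam, and the 1 higher regulator stayed 1. Pathway genes went from 195 lower and 6 higher to 73 and 19 (equal totals), 129 and 10 (without mitochondrial genes) and 45 and 15 (fast fiber genes), and the higher count was 3 to 8 when single replicates were left out, with 3 without WT muscle 3 or mdx5cv muscle 4. Ppargc1a turned to 0.18, 0.04 and 0.19 and Gabpa to 0.19, 0.04 and 0.20 under these scalings, and Nrf1 to -0.01 and -0.02 without WT muscle 2 or mdx5cv muscle 4. Over all 21 alternatives Nrf1 was at -0.02 to 0.38. By construction, each of the 3 scalings moves all genes by about the same amount. In these data the move was upward, by 0.36 (equal totals), 0.21 (without mitochondrial genes) and 0.37 (fast fiber genes) at the median of all genes. The ratio of Esrrb to Esrrg was -0.30 with a pseudocount of 10 (adjusted p = 0.229, exact permutation test). With 1 muscle left out, ratio differences were -0.77 to -0.56 (Ppargc1a to Ppargc1b), 1.34 to 1.57 (Esrra to Esrrg), 2.72 to 3.17 (Esrra to Esrrb) and -1.72 to -1.18 (Esrrb to Esrrg), and 3 against 4 muscles cannot pass the threshold. Samples with the same replicate number correlated at 0.0501, 0.0309, 0.0722 and 0.146 in their deviations from the group means. Other pairs of a WT and an mdx5cv sample correlated at -0.148 to 0.0741. The numbers were taken only as names of the samples, though values this small cannot show whether a weak pairing exists. The replicate block gave 5 lower and 1 higher regulators and 196 lower pathway genes. Depth limits Esrrb, at 2 to 9 reads in mdx5cv muscle.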

Other observations

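Among the upstream inputs counted above, further values of the AMPK subunits and of a PGC-1 relative are given here, picked after they were seen. The AMPK subunits differed in their calls. Prkaa2 was lower (6093 ± 248 to 4233 ± 558 normalized counts, SD, n = 4, log2 fold change -0.53, limma adjusted p = 0.00266), a call lost with equal totals (-0.18, limma adjusted p = 0.186) and when scaled to fast fiber genes (-0.17, 0.326). Prkaa1 was at 0.34 (limma adjusted p = 0.102), and the gamma subunits Prkag1, Prkag2 and Prkag3 were at -0.26 (0.102), 0.99 (7.36e-04) and 0.07 (0.804). Pprc1, the third member of the PGC-1 family, was higher (135 ± 31 to 191 ± 22, log2 fold change 0.52, limma adjusted p = 0.0199), although its groups overlapped.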
